A study of Homo sapiens with 12 samples.

Results

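The 10 genes described here are members of the AP-1 transcription factor family and other immediate early genes: FOS, FOSB, FOSL1, FOSL2, JUN, JUNB, JUND, EGR1, ATF3 and IER3. They were chosen by gene symbol, each matched 1 of the 19225 gene entries of the count table, and all 10 passed the filter on low counts that left 13887 genes for testing. AP-1 is a dimer of basic leucine zipper proteins in which a JUN protein pairs with a FOS, JUN or ATF protein and binds DNA. JUN proteins can pair among themselves, whereas FOS proteins need a JUN partner. Immediate early genes are switched on within minutes of growth factor or stress signals through MAP kinases, without new protein synthesis, and several of their mRNAs are short-lived. In squamous carcinoma cells AP-1 is known for driving genes of invasion and keratinocyte differentiation, and FOSL1 (FRA-1) is often its most abundant FOS protein.

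HN6 and HN30 are established human cell lines of oral squamous cell carcinoma (OSCC). Each line was transfected with a scrambled siRNA (NC) or with 1 of 2 siRNAs against FAT1, siFAT1-1 and siFAT1-2, and RNA was collected 24 h later. FAT1 encodes a giant atypical cadherin of the cell surface. The 6 conditions were each made 2 times, labelled time1 and time2 in the titles and here called repeats 1 and 2. This gave 12 poly(A) RNA libraries, with 26430049 to 47639010 counted reads per library. Sample titles name the knockdowns sh1 and sh2, while the descriptions name siRNAs 1 and 2, so transient siRNA was taken as the agent. The study describes the repeats as biological, and the P values measure the spread between these libraries. Bulk libraries also cannot separate fewer cells of a kind from less RNA per cell.

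Levels and differences are given for each gene. A level is in CPM (read counts scaled to equal library size), or in CPM per kilobase of transcript where genes are compared with each other. A difference is a log2 fold change from a model across all genes, with its standard error (SE) and the Benjamini-Hochberg adjusted p over all genes tested by edgeR. Genes are said to have risen or fallen only where the unadjusted P was under 0.05 and the log2 fold change was beyond 1 in either direction, the rule of the study for differential expression.

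FAT1 itself (chr4:186587794-186726722, minus strand, GRCh38) was lower than the NC library of its own line and repeat in 8 of 8 knockdown libraries. In HN6 its level was 56.8 and 66.7 CPM in NC, 7.61 and 13.5 CPM with siFAT1-1 and 13.2 and 21.4 CPM with siFAT1-2. The HN30 levels were 13.6 and 14.7 CPM in NC, 4.86 and 6.26 CPM with siFAT1-1 and 10.8 and 7.74 CPM with siFAT1-2. The residual FAT1 mRNA was thus 17.1% and 28.0% of the NC mean in HN6 with siFAT1-1 and siFAT1-2, and 39.3% and 65.4% in HN30. FAT1 passed the rule within HN6 (log2 fold change -2.11, SE 0.397, edgeR adjusted p = 0.814) and missed the fold threshold within HN30 (-0.94, SE 0.351, adjusted p = 0.492).

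Upstream sequences are shown for the 4 members with a searched element before a transcript start. RefSeq windows of 300 bases (250 before the start and 50 after, GRCh38.p14) were matched for 8 of the 10 genes in 9 windows; FOSL1 and IER3 are named only. Capitals mark the element found, positions are counted from the transcript start, and each strand is that of the gene. The EGR1 window, from -117 to -62, holds 2 CArG boxes, the element bound by serum response factor. The JUND window, from -212 to -181, holds a cyclic AMP response element (CRE). The JUN window, from -79 to -48, and the ATF3 window, from -135 to -104 of an upstream start, both hold an 8-letter relative of the AP-1 element.
EGR1, chr5:138465362-138465417, plus strand: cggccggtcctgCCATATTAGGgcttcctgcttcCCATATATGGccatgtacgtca
JUND, chr19:18281803-18281834, minus strand: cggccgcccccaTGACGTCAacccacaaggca
JUN, chr1:58784095-58784126, minus strand: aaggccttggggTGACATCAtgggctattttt
ATF3, chr1:212565272-212565303, plus strand: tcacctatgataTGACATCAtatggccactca

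Both strands were searched for the CRE (TGACGTCA), the classical AP-1 element or TRE (TGACTCA), the TRE-like element TGACATCA, the EGR site (GCGTGGGCG) and the CArG box. None of these letter strings contains another. Of 35116 RefSeq windows, 1.85% held the CRE, 4.95% the TRE, 2.61% the TRE-like element, 0.795% the EGR site and 1.29% a CArG box. Besides the windows printed above, FOSL2 held a TRE at position 5 after its start. The TRE-like element was added to the search after the member windows had been read. Neither ATF3 window begins at the start of the annotated main transcript (position 212608761 of chromosome 1), so the printed one belongs to an alternative start. These matches are letters in a window only, and binding was not measured.

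Before knockdown, FOSL1 was the most abundant member per kilobase in both lines. In HN6 NC its level was 376 ± 82.1 CPM per kb (SD, n = 2), followed by IER3 at 315 ± 36.9, JUNB at 132 ± 53.6, JUN at 104 ± 3.24, FOSL2 at 29.0 ± 2.42, JUND at 28.5 ± 3.67, ATF3 at 23.2 ± 0.409, FOS at 15.3 ± 16.6, EGR1 at 8.36 ± 8.44 and FOSB at 2.18 ± 2.37 CPM per kb. Neighbours whose 2 libraries overlapped in this order were FOSL1 and IER3, JUNB and JUN, FOSL2 and JUND, ATF3 and FOS, FOS and EGR1, and EGR1 and FOSB. In HN30 NC the order was FOSL1 at 285 ± 49.8, IER3 at 135 ± 38.8, JUNB at 114 ± 23.7, JUND at 13.1 ± 2.42, FOSL2 at 12.6 ± 5.15, JUN at 9.28 ± 0.0177, ATF3 at 8.67 ± 0.302, EGR1 at 7.57 ± 0.192, FOS at 5.07 ± 5.30 and FOSB at 0.453 ± 0.112 CPM per kb (SD, n = 2). Overlapping neighbours there were IER3 and JUNB, JUND and FOSL2, FOSL2 and JUN, and EGR1 and FOS. JUN stood above FOSL2 and JUND in HN6 and below both means in HN30.

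**Figure D1:**
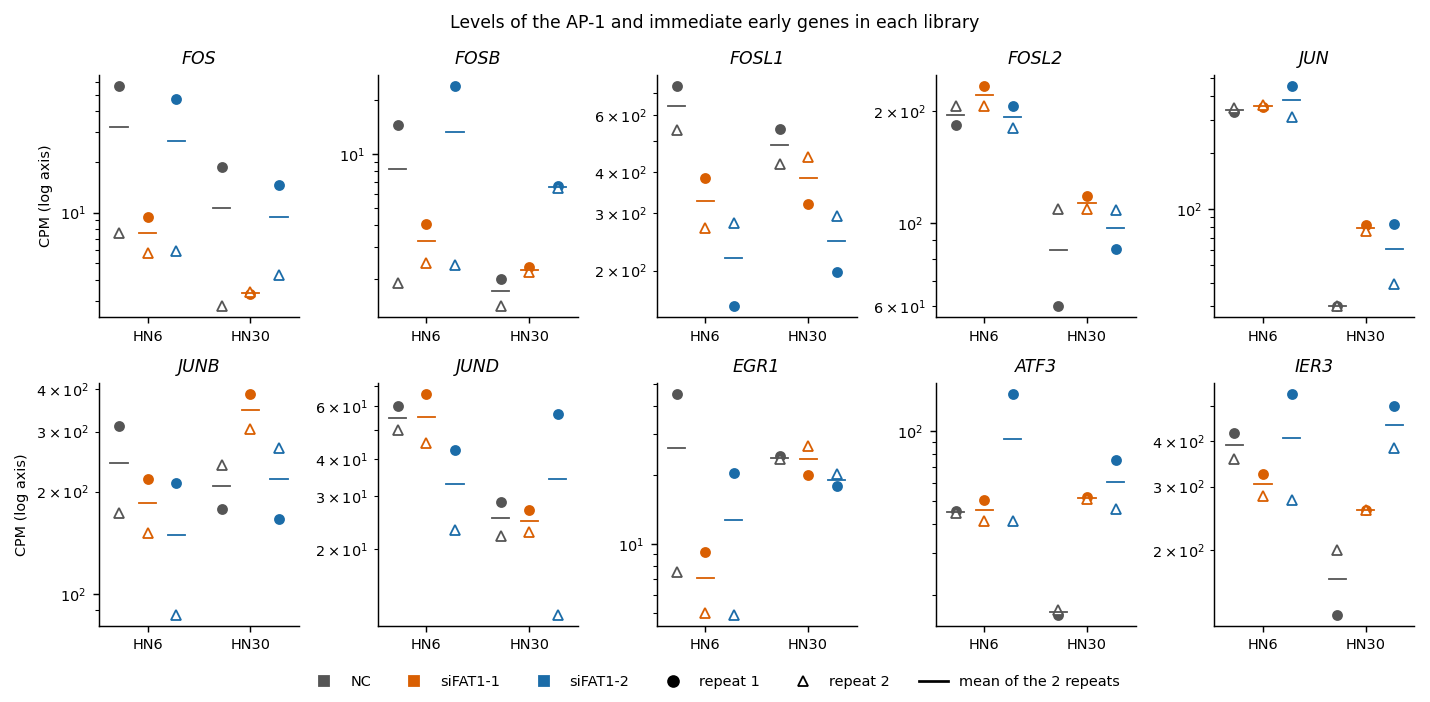
Level of each of the 10 genes in CPM on a log axis, in HN6 and HN30, for NC (grey), siFAT1-1 (orange) and siFAT1-2 (blue). Filled circles are repeat 1, open triangles repeat 2, and bars the mean of both. FOS, FOSB and EGR1 differ several-fold between repeats of HN6 NC, whereas the repeats of JUN and ATF3 in NC nearly coincide.

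Among the FOS genes, FOSL1 fell with siFAT1-2 and within HN6. FOSL1 (chr11:65892049-65900573, minus strand) encodes FRA-1, a FOS protein without the strong activation domain of FOS. Its level in HN6 was 738 and 540.3 CPM in NC, 384 and 270.2 CPM with siFAT1-1 and 156 and 281 CPM with siFAT1-2. All 4 knockdown libraries of HN6 lay below both NC libraries. For HN30 the values were 545 and 425 CPM in NC, 321 and 446 CPM with siFAT1-1 and 198 and 295 CPM with siFAT1-2. The siFAT1-2 libraries of HN30 were the lowest there, and siFAT1-1 overlapped NC.

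With siFAT1-2, FOSL1 fell over both lines (log2 fold change -1.27, SE 0.246, edgeR adjusted p = 0.00900). Its change with siFAT1-1 was -0.66 (SE 0.243, adjusted p = 0.167), which did not reach the fold threshold. The difference between the siRNAs was -0.61 (95% interval -1.14 to -0.09, adjusted p = 0.0972). Within HN6 the gene fell by 1.20 on the log2 scale (SE 0.336, adjusted p = 0.814), and within HN30 the fitted change was -0.63 (SE 0.312, adjusted p = 0.578). The HN6 call rested on repeat 1 of NC, since without that library the change was -0.96 and did not pass. Over both lines and siRNAs the change was -0.94 (SE 0.250, adjusted p = 0.123), just short of the fold threshold, and it passed without HN30 NC repeat 2 (-1.07) or HN30 siFAT1-1 repeat 2 (-1.05). Matched by repeat, FOSL1 was below its NC library in 7 of 8 knockdown libraries.

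FOS (chr14:75278826-75282230, plus strand), the founding member of the family and a typical serum response gene, differed several-fold between the repeats of NC and of siFAT1-2. Its level in HN6 was 56.8 and 7.52 CPM in NC, 9.40 and 5.80 CPM with siFAT1-1 and 47.0 and 5.90 CPM with siFAT1-2. The levels in HN30 were 18.6 and 2.80 CPM in NC, 3.29 and 3.39 CPM with siFAT1-1 and 14.6 and 4.28 CPM with siFAT1-2. Repeat 1 of NC was higher than repeat 2 by 7.55-fold in HN6 and 6.63-fold in HN30, and repeat 1 of siFAT1-2 by 7.97-fold and 3.41-fold. The siFAT1-1 libraries had no such high repeat 1. FOS fell with siFAT1-1 over both lines (log2 fold change -1.88, SE 0.763, edgeR adjusted p = 0.208). Matched by repeat, the log2 ratio of siFAT1-1 to NC was -2.60 in HN6 and -2.50 in HN30 in repeat 1, and -0.38 and 0.28 in repeat 2. With a term for the repeat, the FOS change with siFAT1-1 was -1.22 (adjusted p = 0.185). With limma-voom, the tool of the study, it was -1.27 and did not pass. Without a term for the cell line it was -1.97 and did not pass, with an unadjusted P above 0.05. The call was lost in 6 of 12 fits that left out 1 library: without repeat 1 of HN6 NC (-1.21), repeat 1 of HN30 NC (-1.38) and each of the 4 siFAT1-1 libraries (-1.72 to -1.98). Without HN6 siFAT1-2 repeat 1, FOS also passed over both lines (-1.48) and within HN6 (-2.18).

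FOSB (chr19:45467995-45475179, plus strand), the close relative of FOS, was the least abundant member. In HN6 its level was 14.5 and 1.89 CPM in NC, 4.08 and 2.45 CPM with siFAT1-1 and 24.2 and 2.38 CPM with siFAT1-2, again with high values in repeat 1 of NC and of siFAT1-2. In HN30 it was 2.01 and 1.41 CPM in NC, 2.32 and 2.19 CPM with siFAT1-1 and 6.63 and 6.49 CPM with siFAT1-2. All 4 HN30 knockdown libraries exceeded both NC libraries, and the siFAT1-2 mean was 3.84-fold the NC mean. FOSB was higher with siFAT1-2 than with siFAT1-1 (log2 fold change 1.76, SE 0.700, edgeR adjusted p = 0.101). That call was lost without HN6 siFAT1-2 repeat 1 (1.23), either siFAT1-1 library of HN6 (1.74 and 1.53) or HN30 siFAT1-2 repeat 1 (1.70). It was also lost with limma-voom (1.39) and without a term for the cell line (1.84), both with an unadjusted P above 0.05. The FOSB change with siFAT1-2 against NC was 1.23 (SE 0.692, adjusted p = 0.263), which did not pass the rule. It passed with the repeat term (1.23), without repeat 1 of HN6 NC (2.29) and without repeat 2 of HN6 siFAT1-2 (1.65). Within HN30 the change was 1.36 (SE 0.624, adjusted p = 0.555), which did not pass the rule. It passed by DESeq2 (1.38) and without 1 or the other siFAT1-1 library of that line (1.58 and 1.59).

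FOSL2 (chr2:28392448-28417317, plus strand), which encodes FRA-2, did not pass the rule in any knockdown comparison. It ranged from 179.6 to 234 CPM over the 6 HN6 libraries and from 60.0 to 118 CPM over the 6 HN30 libraries. The knockdown change was 0.20 (95% interval -0.17 to 0.57).

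**Figure D2:**
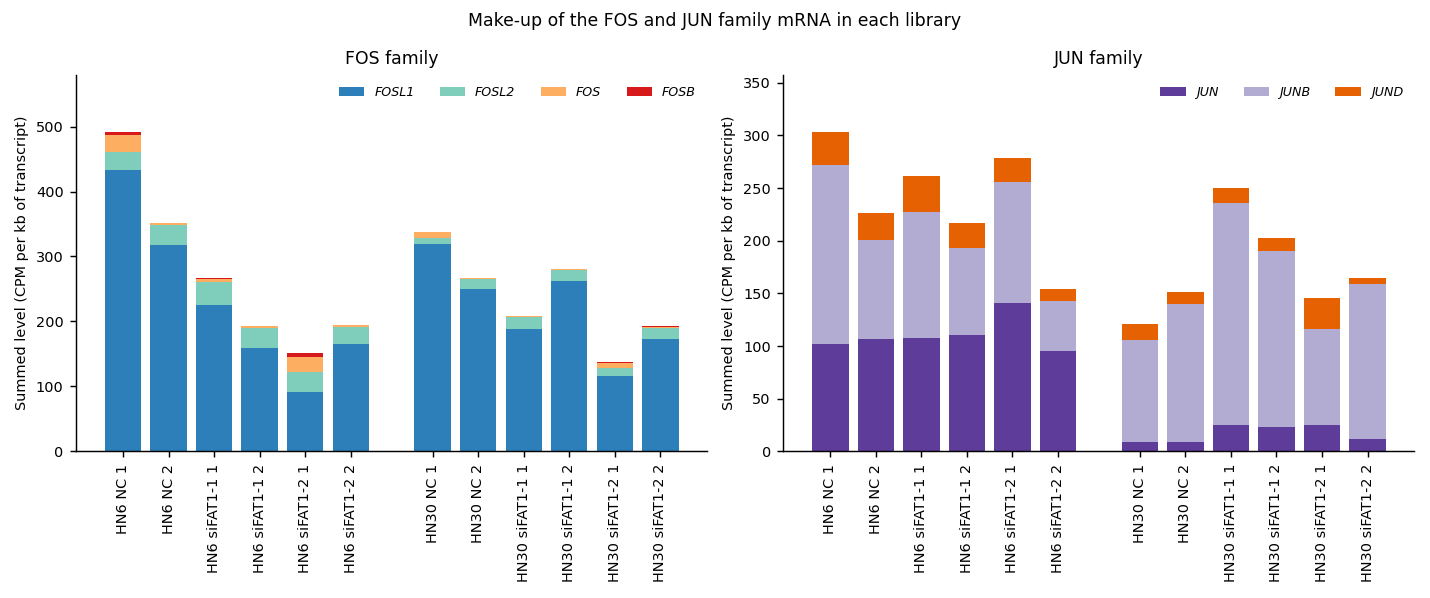
Summed level of the FOS genes (left) and JUN genes (right) in CPM per kb of transcript, 1 bar per library, coloured by gene. FOSL1 (blue) makes up most of every FOS bar and is shorter after knockdown in HN6, and JUN (dark purple) is a small part of every HN30 bar.

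As shares of the summed FOS genes per kilobase, FOSL1 made up 88.2% and 90.1% in HN6 NC and 60.6% to 84.8% in the 4 HN6 knockdown libraries. The lowest share was that of siFAT1-2 repeat 1, in which FOS held 14.8% and FOSL2 20.3%. In HN30, FOSL1 made up 94.6% and 93.3% in NC and 84.5% to 93.4% after knockdown. Its share was thus highest in NC in HN6, whereas NC and knockdown overlapped in HN30. The summed level of the FOS genes was 492 and 352 CPM per kb in HN6 NC, above the 4 knockdown libraries of that line (151 to 266 CPM per kb).

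Among the JUN genes, JUN rose in HN30 and not in HN6. JUN (chr1:58776845-58784048, minus strand) encodes c-Jun, the main target of JNK in this family, and its promoter is known to respond to AP-1. In HN30 its level was 30.3 and 30.2 CPM in NC, 82.1 and 75.7 CPM with siFAT1-1 and 82.7 and 39.3 CPM with siFAT1-2, all 4 above both NC libraries. In HN6 it was 332 and 347 CPM in NC, 351 and 361 CPM with siFAT1-1 and 458 and 309 CPM with siFAT1-2, and the groups overlapped. The change within HN30 was 1.21 (SE 0.338, edgeR adjusted p = 0.415) and within HN6 0.15 (95% interval -0.37 to 0.67). Their difference, taken as the interaction of line and knockdown, was 1.09 (SE 0.398, adjusted p = 1.00) and passed the rule. That call was lost without either NC library of HN30 (1.09 without repeat 1 and 1.08 without repeat 2, both with an unadjusted P above 0.05). It was also lost without repeat 1 of HN30 siFAT1-1, of HN30 siFAT1-2 or of HN6 siFAT1-1, where the difference was 0.9997, 0.995 and 0.979.

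JUNB (chr19:12791486-12793315, plus strand), a weaker activator than JUN that often opposes it, did not pass the rule in any comparison of all libraries. Without HN6 NC repeat 2 the difference between lines in its knockdown effect passed (1.36). Its level in HN6 was 312 and 173 CPM in NC, 218 and 151 CPM with siFAT1-1 and 212 and 87.0 CPM with siFAT1-2. The HN30 levels were 177 and 239 CPM in NC, 386 and 306 CPM with siFAT1-1 and 166 and 268 CPM with siFAT1-2. The siFAT1-1 libraries of HN30 were the highest of that line. JUNB exons overlap those of HOOK2 on the other strand, and since the strand setting of the counting is not given in the sources used here, reads of the 2 genes could not be told apart.

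JUND (chr19:18279694-18281622, minus strand), the member usually present in resting cells, ranged from 23.1 to 65.7 CPM in HN6 and from 12.1 to 56.7 CPM in HN30. Both extremes of HN30 were siFAT1-2 libraries, with 56.7 CPM in repeat 1 and 12.1 CPM in repeat 2. The knockdown change was -0.05 (95% interval -0.82 to 0.72).

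Within the summed JUN genes per kilobase, JUN made up 33.6% and 46.9% in HN6 NC and 41.3% to 61.5% after knockdown. Its shares in HN30 were 7.68% and 6.13% in NC and 7.33% to 17.4% after knockdown, and JUNB held 62.4% to 88.9% over all 6 libraries.

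ATF3 (chr1:212565334-212620777, plus strand), a stress-induced factor that pairs with JUN proteins and often represses its targets, was the member that rose over both lines. In HN30 its level was 16.4 and 17.2 CPM in NC, 52.3 and 51.0 CPM with siFAT1-1 and 74.8 and 46.4 CPM with siFAT1-2. All 4 knockdown libraries were well above NC. In HN6 it was 45.6 and 44.5 CPM in NC, 50.9 and 41.1 CPM with siFAT1-1 and 143 and 41.4 CPM with siFAT1-2. Only repeat 1 of siFAT1-2 stood far above NC in that line.

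Over both lines ATF3 rose by 1.14 log2 units (SE 0.368, edgeR adjusted p = 0.181). With siFAT1-2 the rise was 1.39 (SE 0.382, adjusted p = 0.0368), and with the repeat term it was 1.27 with an adjusted p of 0.0521. With siFAT1-1 the change was 0.82 (SE 0.384, adjusted p = 0.270), and it passed without HN6 siFAT1-1 repeat 2 (1.03). The siRNAs differed by 0.57 (95% interval -0.25 to 1.38). Within HN30 the rise was 1.73 (SE 0.274, adjusted p = 0.359), and within HN6 the change was 0.65 (SE 0.549, adjusted p = 0.816). The test of the difference between lines gave 1.12 (SE 0.648, adjusted p = 1.00), which did not pass. The fold threshold was missed over both lines without HN6 siFAT1-2 repeat 1 (0.84), without HN30 NC repeat 1 (0.98) and without HN30 NC repeat 2 (0.998). Without HN6 siFAT1-2 repeat 1, the ATF3 change with siFAT1-2 was 0.97, and the difference between lines was 1.76 and passed the rule.

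EGR1 (chr5:138465479-138469303, plus strand), a zinc finger factor and a standard readout of ERK and serum response factor activity, showed the same uneven repeats as FOS in HN6 alone. In HN6 its level was 44.9 and 7.50 CPM in NC, 9.17 and 5.0 CPM with siFAT1-1 and 20.4 and 4.90 CPM with siFAT1-2. In HN30 it lay between 17.8 and 26.8 CPM in all 6 libraries. Its knockdown change was -0.83 (95% interval -1.85 to 0.19). Within HN6 it was -1.39 (SE 0.765, adjusted p = 0.814), and with the repeat term EGR1 passed the rule there (-1.11). The EGR1 values moved with single libraries of HN6. Without repeat 1 of HN6 NC the change over both lines was 0.02, and without repeat 1 of HN6 siFAT1-2 it was -1.13 and passed. It also passed without repeat 2 of HN6 NC (-1.09). Within HN6 alone it passed without repeat 1 of siFAT1-2 (-2.03) and without repeat 2 of NC (-2.17).

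IER3 (chr6:30743199-30744548, minus strand), an early response gene that modulates survival and ERK signalling, was higher after knockdown in HN30. There its level was 133 and 201 CPM in NC, 259 and 258 CPM with siFAT1-1 and 502 and 384 CPM with siFAT1-2, with no overlap. In HN6 it was 422 and 358 CPM in NC, 326 and 283 CPM with siFAT1-1 and 539.8 and 277 CPM with siFAT1-2. Of the HN6 knockdown libraries, 1 was above NC and 3 were below. IER3 rose within HN30 (log2 fold change 1.07, SE 0.351, edgeR adjusted p = 0.455), and its change within HN6 was -0.11 (95% interval -0.83 to 0.62). The difference between lines was 1.20 (SE 0.490, adjusted p = 1.00) and passed the rule, a call that was lost in 6 of 12 fits with 1 library left out (0.93 to 1.10). Without HN30 NC repeat 1 the change within HN30 was 0.82 and without HN30 siFAT1-2 repeat 1 it was 0.84, and neither passed. IER3 exons overlap the noncoding genes HCG20 and IER3-AS1 on the other strand, which have no row in the count table.

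**Figure D3:**
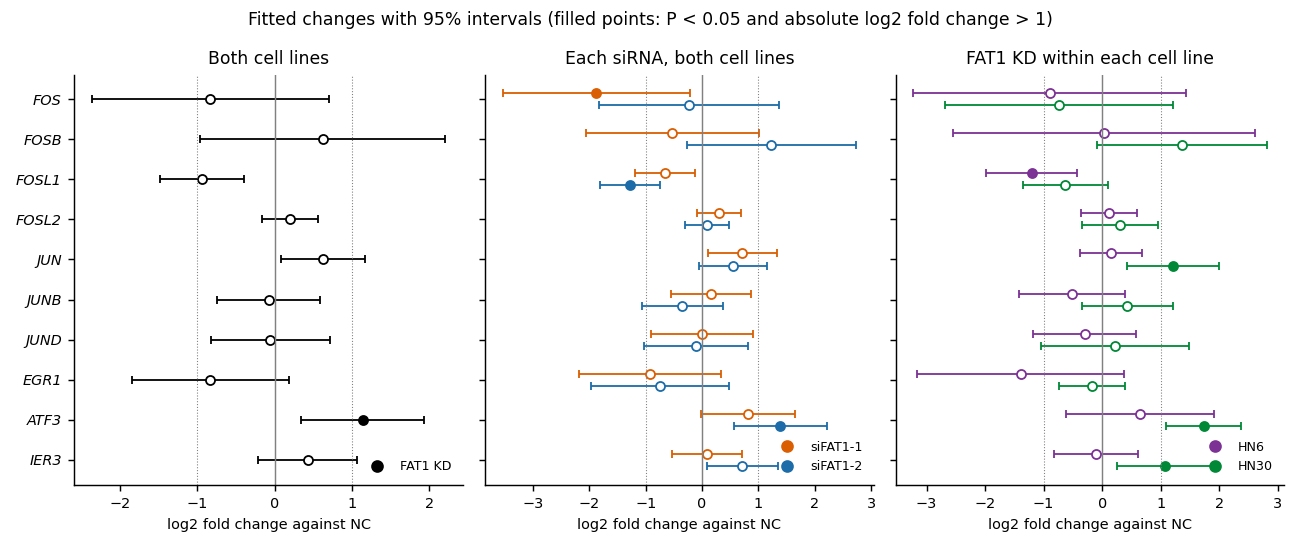
Fitted log2 fold change against NC for each gene with its 95% interval, over both lines (left), for each siRNA (middle) and within each line (right). Filled points passed the rule for differential expression; dotted lines mark a log2 fold change of 1 in either direction. In the right panel the filled HN30 points are JUN, ATF3 and IER3, and the filled HN6 point is FOSL1.

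Counted together, the members moved in both directions. Over both lines 1 of 10 passed the rule (ATF3, up), where 3.07% of all genes tested did. The median log2 fold change of the members was 0.07 and that of all genes 0.02. Within HN30 the members' median was 0.37, with 7 of 10 above 0, and within HN6 it was -0.20, with 4 of 10 above 0; all genes had a median of 0.03 in each line. At unadjusted P under 0.05 alone there were 3 members (FOSL1, JUN and ATF3), against 14.5% of all genes, and 0 of 10 had an adjusted p under 0.05 in edgeR (0.547% of all genes). DESeq2 gave 2 such members (FOSL1 and ATF3, 4.61% of all genes) and limma-voom 0 (0.691%). For FOS, DESeq2 returned a fold change but no P value in this comparison. With siFAT1-1, 1 of 10 was called (FOS, down; background 5.58%) and 0 by adjusted p in edgeR (3.25%), limma-voom (3.98%) or DESeq2 (8.76%), with 3 at unadjusted P under 0.05 (19% of all genes). With siFAT1-2, 2 of 10 were called (FOSL1 down, ATF3 up; background 9.06%), and both had an adjusted p under 0.05 in edgeR (11.8%) and in DESeq2 (19.4%). In limma-voom (13.8%) that held for FOSL1, and ATF3 had an adjusted p of 0.0518. Between the siRNAs, 1 of 10 was called (FOSB; background 12.4%) and 0 by adjusted p in edgeR (17.4%), with 3 at unadjusted P under 0.05 (33.8% of all genes), 1 by adjusted p in DESeq2 (FOSB; 25.9%) and 0 in limma-voom (19.3%). With the repeat term, FOS also passed between the siRNAs (1.07), as it did in 5 of 12 fits with 1 library left out (1.66 to 1.98).

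Within HN6, 1 of 10 was called (FOSL1, down), at a background of 3.08%. Within HN30, 3 of 10 were called (JUN, ATF3 and IER3, up), at a background of 4%. By adjusted p the background was 0% in edgeR in each line, with 779 genes (5.72%) at unadjusted P under 0.05 in HN6 and 1265 (9.3%) in HN30. DESeq2 gave 68 and 201 genes by adjusted p, among them 0 members in HN6 (0.499% of all genes) and 1 in HN30 (ATF3, 1.48% of all genes). FOSB had no DESeq2 P value within HN6. With limma-voom there were 0 in both. Knockdown and NC libraries did not overlap for FOSL1 in HN6 (1 of 10 members, background 16.3%), and for FOSB, JUN, ATF3 and IER3 in HN30 (4 of 10, background 21.2%). No member kept the same separation in both lines (background 5.44%).

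The knockdown effect was more positive in HN30 than in HN6 for 10 of 10 members, with a median difference of 1.03 on the log2 scale against 0.03 for all genes, of which 52.0% were above 0. These 10 values share the same 12 libraries and were not independent of each other. A higher median within HN30 than within HN6 was not particular to the members. It was 0.41 against -0.19 for the other immediate early genes listed below. For the MAP kinase phosphatases and feedback inhibitors it was 0.14 against -0.29. The proteins that bind AU-rich elements went the other way, with -0.27 in HN30 and -0.22 in HN6. The interaction passed the rule for 2 members, JUN and IER3 (background 1.79%). By adjusted p it passed for 0 members and 0% of all genes in edgeR, limma-voom or DESeq2. DESeq2 gave no P value for FOS in this test. In edgeR 298 genes (2.15%) had an unadjusted P under 0.05. Without HN6 siFAT1-2 repeat 1 the interaction passed for 5 members and without HN6 NC repeat 2 for 4. It passed for 0 without HN30 NC repeat 1, HN30 siFAT1-2 repeat 1 or HN6 siFAT1-1 repeat 1.

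**Figure D4:**
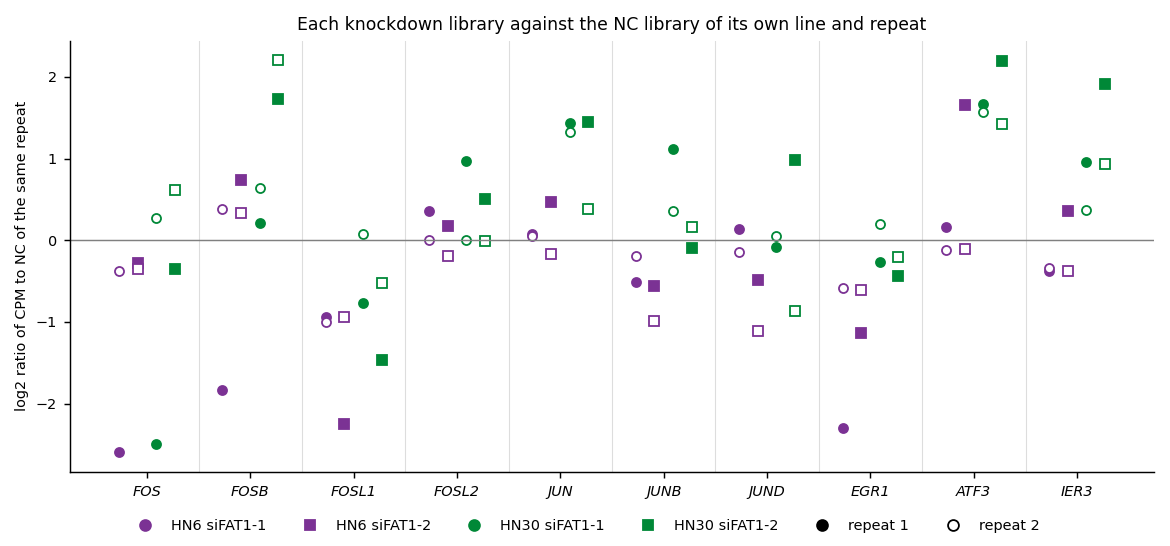
Log2 ratio of each knockdown library to the NC library of the same line and repeat, by gene. Circles are siFAT1-1, squares siFAT1-2, purple HN6, green HN30, filled symbols repeat 1 and open symbols repeat 2. The 4 green symbols of each of FOSB, JUN, ATF3 and IER3 lie above 0, and the lowest purple and green circles of FOS are filled.

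The repeats were also fitted separately, with 6 libraries each. In repeat 1 alone ATF3 changed by 1.499 (adjusted p = 0.786), FOSL1 by -1.26 (adjusted p = 0.786) and JUN by 0.82 (adjusted p = 0.797), and ATF3 and FOSL1 passed the rule. In repeat 2 alone the values were 0.62, -0.60 and 0.41, each with an adjusted p of 0.844. Direction was shared and the size was smaller in repeat 2, where no member passed the rule. FOS changed by -1.03 in repeat 1 and 0.02 in repeat 2, and EGR1 by -1.03 and -0.30. Why repeat 1 of the NC and siFAT1-2 libraries held more FOS was not tested.

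Between the lines, over all conditions, 4 of 10 members were lower in HN30 than in HN6 and none was higher, at a background of 31.7%. JUN was 6.81-fold lower (log2 fold change -2.77, SE 0.244, edgeR adjusted p = 2.05e-06). FOSL2 was lower by 2.07-fold (-1.05, SE 0.148, adjusted p = 8.67e-05). These 2 members also passed by adjusted p (background 56.9%). FOS (-1.43) and FOSB (-1.26) passed the rule with adjusted p of 0.0646 and 0.0785, and FOSB did not pass with the repeat term (-0.89). With limma-voom neither gene passed (-1.27 for FOS and -0.70 for FOSB). FOS lost its call when 1 of 7 libraries was left out and FOSB when 1 of 9 was, with the smallest differences (-0.96 and -0.65) without HN6 NC repeat 1. FOSL2 missed the fold threshold without HN30 NC repeat 1 (-0.94) and without HN6 siFAT1-1 repeat 1 (-0.997). JUND passed without HN30 siFAT1-2 repeat 1 (-1.21), and EGR1 was higher in HN30 without HN6 NC repeat 1 (1.27). The FOSL1 difference between the lines was 0.0019 (95% interval -0.43 to 0.43).

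The genes around AP-1 were described by lists of related factors, signalling genes and targets. Of 26 partners and related basic leucine zipper factors, 1 rose after FAT1 knockdown and 0 fell, with a median of 0.20. That count was close to the 3.07% of all genes called. The riser was CREB5, a CREB-related factor that can pair with JUN (log2 fold change 1.42, SE 0.486, adjusted p = 0.208). Its level was 4.95 and 1.24 CPM in HN6 NC and 4.66 to 9.61 CPM after knockdown, and 0.283 and 1.21 CPM in HN30 NC and 1.75 to 4.07 CPM after knockdown. ATF7 (0.40), ATF1 (0.84) and ATF5 (-0.86) had an unadjusted P under 0.05 but did not reach the fold threshold over both lines. CREB5 passed with each siRNA (1.58 and 1.25), ATF5 fell with siFAT1-1 (-1.63, adjusted p = 0.0207) and ATF1 rose with siFAT1-2 (1.21, adjusted p = 0.0266). Of 39 other immediate early genes, 1 rose and 0 fell, with a median of -0.04, against the same 3.07% of all genes. That gene was CYR61, a secreted matrix protein also known as a YAP target (1.10, SE 0.354, adjusted p = 0.181). With siFAT1-1 CYR61 rose by 1.42 (adjusted p = 0.0441) and with siFAT1-2 its change was 0.69 (adjusted p = 0.201). GADD45A (-0.59), IER5L (-0.62) and KLF6 (0.75) missed the fold threshold.

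In the MAP kinase cascade with serum response factor and its cofactors, 0 of 26 genes passed the rule over both lines. In that list 4 had an unadjusted P under 0.05, and the median was -0.13. Of all genes, 3.07% passed the rule and 14.5% had an unadjusted P under 0.05, so these counts were near the background. ARAF, a RAF kinase, changed by -0.71 (SE 0.154, adjusted p = 0.0635). Its level was 91.0 and 82.1 CPM in HN6 NC against 38.7 to 63.8 CPM after knockdown, and 84.7 and 66.9 CPM in HN30 NC against 49.1 to 52.3 CPM, without overlap in either line. ELK1, a ternary complex factor that binds with serum response factor, changed by -0.63, and RPS6KA3, which encodes the kinase RSK2, by 0.42. Of 20 MAP kinase phosphatases and feedback inhibitors, 0 passed the rule over both lines and 2 had an unadjusted P under 0.05 (DUSP8 at 0.76 and DUSP7 at -0.70). The shares of all genes were again 3.07% and 14.5%. DUSP7, an ERK phosphatase, fell with siFAT1-2 (-1.22, adjusted p = 0.0227). DUSP4 (-0.34) and SPRY2 (-0.47) completed the named genes of that list.

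Known AP-1 target genes were listed as well. Of 25, 24 were tested, 1 rose and 3 fell over both lines, and the median was -0.30. The share of all genes called in that comparison was 3.07%, and their median 0.02. With siFAT1-2, 7 fell and 0 rose, with a median of -0.55, where 9.06% of all genes were called in either direction. MMP9, a gelatinase, fell by 4.70 on the log2 scale (SE 1.06, adjusted p = 0.0706). Its level was 542 and 59.2 CPM in HN6 NC, 59.1 and 49.97 CPM with siFAT1-1 and 15.8 and 25.8 CPM with siFAT1-2. In HN30 it was 41.2 and 0.353 CPM in NC and at most 0.555 CPM after knockdown. Repeat 1 of NC was far above repeat 2 in both lines, and in HN30 the knockdown libraries overlapped NC. IL6 changed by -0.67 (adjusted p = 0.273).

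Genes that act on unstable early response mRNAs and on stress were also listed. Of 9 proteins that bind AU-rich elements, 0 passed the rule over both lines. Of all genes, 3.07% passed it and 14.5% had an unadjusted P under 0.05. HNRNPD (-0.58) and ELAVL1 (-0.47) had an unadjusted P under 0.05, and TIA1 (0.66) and ZFP36L2 (-0.31) did not. TIA1 rose with siFAT1-2 (1.03, adjusted p = 0.0733). Of 11 heat shock genes, 0 passed the rule over both lines, and 0 had an unadjusted P under 0.05, against the same 3.07% and 14.5% of all genes. DNAJB1, a chaperone partner of HSP70, fell with siFAT1-2 (-1.5005, adjusted p = 0.00556). HSP90AA1 (0.61), HSPD1 (0.55) and HSPH1 (0.51) had an unadjusted P above 0.05. For the 13 mitochondrially encoded genes no row was found, so that marker of RNA quality could not be given.

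The shared pattern of the members was summarised as the mean of their scaled levels, centred within each line, over the 12 libraries. This profile was highest in HN6 NC repeat 1 (0.85) and HN6 siFAT1-2 repeat 1 (0.66) and lowest in HN6 siFAT1-2 repeat 2 (-0.95). Pearson's r with this mean was 0.78 for FOSB, 0.74 for IER3, 0.73 for EGR1, 0.72 for JUNB, 0.71 for ATF3, 0.61 for JUN, 0.56 for FOS, 0.49 for JUND and 0.28 for FOSL2, and each member is itself part of the mean. FOSL1 stood apart at -0.08. The 5 other genes most like the profile were RASGRP2 (r = 0.95), TMEM63B (0.94), FAM214B (0.93), ANO9 (0.93) and TFAP2E (0.92). RASGRP2 was measured at 0.150 to 2.39 CPM and TFAP2E at 0.391 to 7.81 CPM. These coefficients describe 12 libraries that share lines and repeats and were picked as the highest among all genes.

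The squamous identity of the libraries was checked with 9 epithelial markers, which summed to 1542 to 6265 CPM. KRT5 reached the highest level of these markers (1986 CPM) but was as low as 90.6 CPM in HN30 siFAT1-2 repeat 1. There it was below CDH1, which had at least 314 CPM in every library. KRT14, a defining basal keratin, was near 0 (at most 2.42 CPM). The squamous sum was 2550.7 and 2388 CPM in HN30 NC, 3769 and 3632 CPM with siFAT1-1 and 1542 and 1989 CPM with siFAT1-2, which was above NC with siFAT1-1 and below it with siFAT1-2. In HN6 it was 2587 and 3763 CPM in NC, 6265 and 5387 CPM with siFAT1-1, above both, and 2178 and 3079 CPM with siFAT1-2, which overlapped NC. Its part in the results was not tested. The 6 fibroblast markers summed to 12.5 to 164 CPM, mostly COL1A1. LUM reached 13.7 CPM, PDGFRB 9.36 CPM and COL1A2 4.42 CPM, and COL3A1 and DCN were under 1 CPM. The fibroblast sum was highest (164 CPM) in HN6 siFAT1-2 repeat 1, the library with the highest ATF3, FOSB and IER3. In HN30 it was 12.5 and 21.9 CPM in NC and 31.7 to 50.1 CPM after knockdown. Its part in those results was not tested. The 3 endothelial markers summed to at most 7.87 CPM. The 4 leukocyte markers summed to 24.3 to 124 CPM, mostly CD68 in HN6, with CD14 at up to 15.0 CPM, while PTPRC had at most 1 read. The leukocyte sum was likewise highest (124 CPM) in HN6 siFAT1-2 repeat 1, and its part in the results was not tested.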

How the data were processed

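The deposited table holds raw read counts per gene, made by the authors from paired-end NovaSeq reads of poly(A) RNA. The submitters' notes name HISAT2, featureCounts and hg38; versions, annotation and strand setting are not given in the sources used here. The authors had removed duplicate and low-quality reads, which can compress counts of abundant genes. Of 19225 rows, 27 bear date-like symbols, none of a gene named here.

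Genes were kept by filterByExpr with a minimum count of 10 (NC against knockdown as groups; 13887 kept over 12 libraries), scaled by TMM and tested with edgeR 4.0.16 quasi-likelihood fits in R 4.3.3, with cell line as a term. FAT1 knockdown, each siRNA, the 2 siRNAs, the lines, each line alone and the interaction were compared. The study's rule (P under 0.05, absolute log2 fold change above 1) was applied. SE was the log2 fold change divided by the square root of F. CPM used TMM-scaled libraries; transcript lengths came from GENCODE 44. Limma-voom 3.58.1, which the study used, DESeq2 1.42.0, other filters, the repeat term and each library left out were alternatives. The sample titles label repeats 1 and 2 as time1 and time2 and do not say which libraries were made together. The main tests therefore held no term for the repeat, and matching by repeat number is descriptive. Same-numbered libraries correlated in their deviations at 0.08, 0.22 and 0.24 in HN6, and at -0.03, 0.40 and -0.02 in HN30. The code was tested on simulated data.

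The members, the gene lists and the tests were chosen with earlier results of these data known. The genes named were FAT1, the 10 members, up to 4 genes per list with the smallest P, and the 5 genes most like the members' mean profile. Some genes of the lists are counted but not reported here by name. The single-siRNA values of list genes were chosen after they were seen. Counts of 26430049 to 47639010 per library set the precision. Each group held 2 libraries.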

Additional observations from a re-analysis of the deposited data

Results flagged for a closer look

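The knockdown effect differed between the lines for 3 genes by the test of the difference itself, by the rule of unadjusted P and fold. The log2 effect in HN30 minus that in HN6 was 1.09 for JUN, 1.20 for IER3 and 1.22 for FAT1, each with an edgeR adjusted p of 1.00. JUN was above NC in 4 of 4 HN30 knockdown libraries, and in HN6 the groups overlapped. IER3 was above NC in 4 of 4 HN30 knockdown libraries and above it in 1 of 4 in HN6. FAT1 itself was lowered less in HN30 than in HN6, with a log2 fold change of -0.94 against -2.11. The part of the weaker knockdown in the other differences was not tested. With 2 libraries per group, outlying libraries were not looked for within groups.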

How the results depend on the processing

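Over both lines, 1 member was called; with repeat 1 libraries only there were 2, and with repeat 2 only 0 (added after seeing the data). There, FOS was 0.022 and FOSL2 -0.050 in repeat 2, and JUNB 0.010 and JUND 0.19 in repeat 1, opposite in sign to all libraries. The count within HN6 was 2 with a line-by-knockdown model over 12 libraries and 2 with the replicate block. Against HN6, HN30 had 2 with limma-voom. For siFAT1-1 it was 0 with limma-voom and 0 without the line term. Between the siRNAs it was 2 with DESeq2, 0 with limma-voom, 0 without the line term, 2 with no filter and 2 with the replicate block. The replicate block also called FOSB with siFAT1-2 and dropped FOSB between the lines, and changed no other member's call. JUND with siFAT1-1 was 0.0224 by DESeq2, 0.0228 with its size factors, 0.0071 by limma-voom and 0.00094 without the line term. Of 200 values under such settings, 187 kept direction and call. The cause was not tested.

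With 1 library left out at a time there were 0 to 2 called members over both lines, 2 to 4 within HN30, 0 to 3 within HN6, 1 to 4 between lines, 0 to 5 for the interaction, 0 to 1 for siFAT1-1, 1 to 3 for siFAT1-2 and 0 to 2 between siRNAs. Ranges that crossed 0 over both lines were -1.13 to 0.025 for EGR1, -0.16 to 1.63 for FOSB, -0.27 to 0.24 for JUNB and -0.31 to 0.066 for JUND. With siFAT1-1 they were -0.84 to 0.49 for FOSB, -0.15 to 0.27 for IER3, -0.036 to 0.46 for JUNB and -0.19 to 0.12 for JUND. With siFAT1-2 they were -1.28 to 0.17 for EGR1, -0.90 to 0.46 for FOS, -0.073 to 0.23 for FOSL2 and -0.86 to 0.17 for JUND. Of these 360 values 319 kept direction and call. Repeat 1 of HN6 NC or of HN6 siFAT1-2 gave the extremes for FOS and FOSB over both lines.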
